A study of Mus musculus with 2 samples.

Results

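Chemokines are small secreted proteins that steer leukocytes along gradients. They act through receptors with a membrane-spanning, G protein-coupled fold, and atypical receptors of the same fold bind and clear them without G protein signalling. Ligands are named after the spacing of their first cysteines (Ccl, Cxcl, Cx3cl) and receptors after the ligands they bind. In adipose tissue they are made by fat cells, stromal cells, endothelium and resident immune cells, and Ccl2 and its receptor Ccr2 are best known for drawing monocytes into obese fat.

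The chemokine and chemokine receptor genes were followed in interscapular brown adipose tissue, the heat-producing fat between the shoulder blades. RNA of wild-type mice (WT) was compared with RNA of knockout mice (DKO), in which Rora, a nuclear receptor gene, is among those lost. Both genotypes were C57BL/6 males of 2 to 3 months, 4 mice per genotype according to the labels, with tissue taken around circadian time 20. The labels name no tissue-limited deletion, so a difference in the fat need not start there, and they do not say whether the 4 mice were pooled. Each of 2 whole mouse genome arrays received 750 ng of labelled cRNA per dye for 17 hours. One array had DKO RNA in Cy5 and WT RNA in Cy3, and the dyes were exchanged on the other. The labels do not say whether both arrays received the same RNA extracts. They were taken here as 1 sample per genotype in both dye orientations, so no difference between genotypes was tested. An SD over the 2 arrays holds dye and measurement error, and also differences between mice if the extracts differed.

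Members were all probes whose printed gene name was Ccl, Cxcl, Ccr, Cxcr, Cx3cl, Cx3cr or Ccrl followed by its number. Ccrn4l and Ccrk, which share the letters but belong to other families, were left out. This gave 51 probes for 44 genes, of 36072 genes and transcripts on the array, and 6 of these genes had more than 1 probe. Of the 44 genes, 29 were ligands and 15 were receptors or receptor-like. A gene was taken as measured when, on both arrays, at least 1 genotype was flagged as well above background (the same genotype each time), and its brightest measured probe stood for it. Of the 44, 35 were measured: 25 of 29 ligands and 10 of 15 receptors. Of the 51 probes, 40 (78.4%) were well above background in all 4 channels, against 75.5% of all probes. No member spot was saturated. Total tissue was hybridised, so fewer cells of a type and less RNA per cell cannot be told apart.

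The labels were first set against the targeted gene. The log2 ratio of DKO over WT for Rora was -0.42 with DKO in Cy5 and -0.35 with DKO in Cy3, and -0.91 and -1.02 in the scanner software's own ratios, so that the DKO channel was lower in both orientations. Whether the Rora probe lies in the deleted part is not known here. All 12 brown adipocyte genes on the array were measured, Ucp1 among them at 0.73 ± 0.00 (SD, n = 2 arrays). Within that list Dio2, which activates thyroid hormone, and Elovl3, which elongates fatty acids, passed the size rule given next, at 1.89 ± 0.32 and 1.02 ± 0.02.

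A gene was called when its mean ratio reached 2-fold, each array reached 1.5-fold in the same direction, and the genotype with more signal was flagged above background each time. Among all 28653 measured genes and transcripts, 29 (0.101%) were called higher in DKO and 7 (0.0244%) lower. Of the 35 measured chemokine and receptor genes, 0 were called higher and 0 lower. With a background this low, a count of 0 in 35 genes says nothing particular about them. At a mean of 1.5-fold with the same sign on each array, the members gave 0 and 0 again, where 102 (0.356%) and 79 (0.276%) of all genes passed. The median log2 ratio was 0.0023 for the members and 0.0021 for all measured genes.

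The largest ratios in the system belonged to ligands, and to one scavenging receptor that carries an older name on the array. The sequences upstream of the ligands with the largest ratios are printed because Rora belongs to the receptors that bind DNA at AGGTCA, a core best bound with A and T bases before it. Each sequence is the 250 bases before the gene's start, 5′ to 3′ on the gene's strand, from RefSeq on GRCm38.p6. Capitals mark AGGTCA, or its reverse complement TGACCT.

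Ccl6 (chr11:83593088-83593337, minus strand): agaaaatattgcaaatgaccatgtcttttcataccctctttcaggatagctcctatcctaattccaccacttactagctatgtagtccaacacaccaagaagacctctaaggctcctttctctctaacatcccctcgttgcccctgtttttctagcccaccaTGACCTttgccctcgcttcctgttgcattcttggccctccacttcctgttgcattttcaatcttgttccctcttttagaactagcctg
Cxcl14 (chr13:56296552-56296801, minus strand): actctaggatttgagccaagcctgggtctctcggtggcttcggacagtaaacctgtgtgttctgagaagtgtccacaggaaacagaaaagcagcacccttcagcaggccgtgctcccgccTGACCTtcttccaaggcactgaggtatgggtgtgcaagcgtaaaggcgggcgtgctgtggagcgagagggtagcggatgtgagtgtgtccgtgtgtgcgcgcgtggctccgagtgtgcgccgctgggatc
Cxcl13 (chr5:95956689-95956938, plus strand): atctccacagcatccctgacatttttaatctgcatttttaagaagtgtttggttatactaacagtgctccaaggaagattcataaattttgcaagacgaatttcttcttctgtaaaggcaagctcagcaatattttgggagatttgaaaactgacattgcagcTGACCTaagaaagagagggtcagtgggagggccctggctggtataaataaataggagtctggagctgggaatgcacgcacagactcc
Cxcl12 (chr6:117168285-117168534, plus strand): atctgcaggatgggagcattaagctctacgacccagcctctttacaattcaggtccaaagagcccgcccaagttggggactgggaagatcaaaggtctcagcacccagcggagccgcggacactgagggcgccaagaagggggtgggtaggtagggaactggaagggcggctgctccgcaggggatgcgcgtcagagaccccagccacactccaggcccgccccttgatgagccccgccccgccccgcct

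The core stands once upstream of Ccl6, Cxcl14 and Cxcl13, in each case on the opposite strand, and begins 88, 130 and 87 bases before the start. The Cxcl12 stretch does not hold these letters, which is a statement about this window only. A promoter was given for 34 of the 44 genes and not for 10, Ccl2, Ccl4, Ccl5, Ccl7, Ccl11, Ccl21c, Ccl24, Ccr7 and Cxcl16 among them. AGGTCA on either strand occurred in 10 of these 34 genes (29.4%) and in 14.0% of all 32851 promoters of that length. The units differ, here and for the next motif. A member gene counted if any of its promoters matched, whereas the share over all counts single promoters, so no enrichment is read from them. With a T before it (TAGGTCA, which overlaps the shorter motif) it occurred in 6 of 34 (17.6%) against 2.23%. Those 6 were Ccl3, Ccl17, Ccr6, Cxcl9, Cxcl13 and Cxcl7. The 4 measured among them differed in ratio: Cxcl13 at 0.22, Cxcl7 at 0.00, Ccr6 at -0.04 and Cxcl9 at -0.12. A match of letters is a description and no binding was measured.

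**Figure D1:**
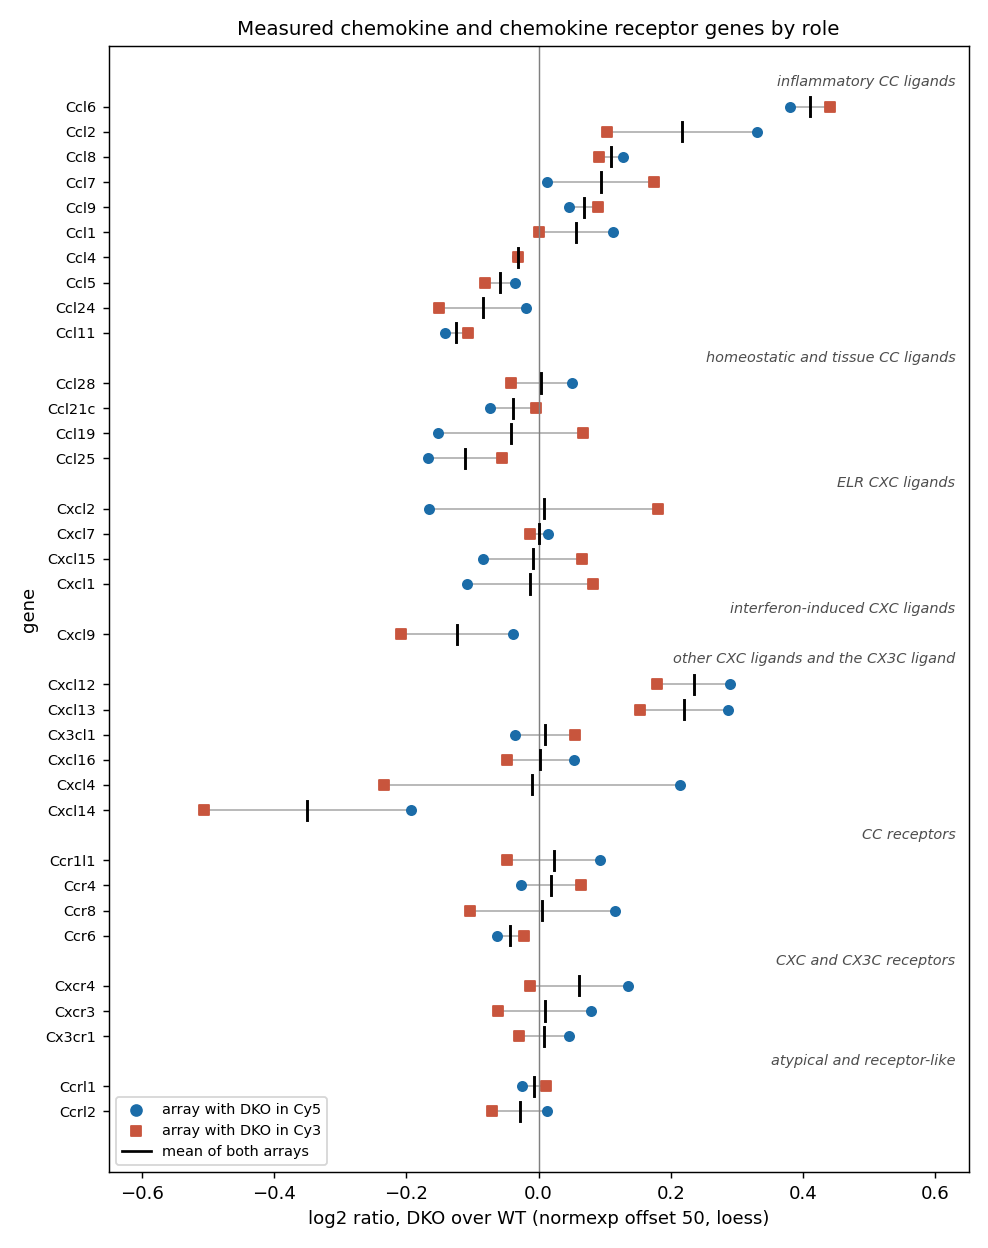
Log2 ratio of DKO over WT (x axis) for 34 of the 35 measured genes (y axis), grouped by role; 1 receptor gene is not drawn. Circles are the array with DKO in Cy5, squares the array with DKO in Cy3, and black bars their mean. Ccl6 lies farthest to the right at 0.41 and Cxcl14 farthest to the left at -0.35, while the receptors lie between -0.04 and 0.06.

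Ccl6, a rodent chemokine that acts on Ccr1-bearing macrophages, had the largest ratio of the family. Its processed signal, the scanner software's background- and dye-corrected intensity in arbitrary units, was 2063 in DKO and 1303 in WT on the array with DKO in Cy5. On the dye-swapped array it was 2206 in DKO and 1429 in WT. Both DKO values lay above both WT values, and the same genotype was higher in either dye. Processed signals can shift between arrays in both genotypes alike, as those of Cxcl7 do below. For every gene described in this way, the comparison across arrays is therefore weaker than the one within an array. The log2 ratios were 0.38 and 0.44, a mean of 0.41 ± 0.04 (SD, n = 2 arrays) or 1.33-fold. The software's ratios gave 1.56-fold. Ccl6 was the only member whose deposited error-model p-value was under 0.01 on both arrays with the same sign (0.000447 and 0.000743), a rule that 142 (0.496%) of all genes passed as higher and 121 (0.422%) as lower. That p-value weighs noise within a spot and not differences between mice.

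Ccl6 sits in a run of neighbouring Ccl genes on chromosome 11, in the order Ccl5, Ccl9, Ccl6, Ccl3 and Ccl4. Ccl9, a Ccr1 ligand like Ccl6, had processed signals of 2528 in DKO and 2391 in WT with DKO in Cy5, and of 2412 and 2225 with DKO in Cy3. Its log2 ratio was 0.07 ± 0.03, small but of 1 sign on both arrays. Ccl5, the T cell chemoattractant RANTES, was at -0.06 ± 0.03 and Ccl4 at -0.03 ± 0.00. Ccl3 was not measured. The difference seen for Ccl6 was therefore not seen across the measured neighbours. The shared receptor Ccr1 was not above background in any channel, so nothing can be said of its level.

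The run of Ccl2, Ccl7, Ccl11, Ccl8 and Ccl1, also on chromosome 11, holds the monocyte and eosinophil attractants. Ccl2, the main monocyte chemoattractant, gave processed signals of 673 in DKO and 447 in WT with DKO in Cy5, and of 633 and 522 with DKO in Cy3. Both DKO signals exceeded both WT signals, but the log2 ratios differed in size, 0.33 against 0.10, for a mean of 0.22 ± 0.16. Ccl7, which shares the receptor Ccr2 with Ccl2, was well above background on both arrays in DKO only. Its processed signals were 214 in DKO and 176 in WT, then 210 and 140 on the swapped array. Its mean ratio was 0.09 ± 0.11. WT was not well above background on either array. The mean corresponds to 1.07-fold under this scaling, from array values of 0.01 and 0.17, and no lower limit of the fold is drawn from it. Across settings the ratio ran from 0.01 to 0.43, with 0.02 under median centring.

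Ccl8 (monocyte chemoattractant of the same run) was at 0.11 ± 0.03, with signals of 1040 in DKO and 963 in WT, then 936 and 819. Ccl1, a Ccr8 ligand, was at 0.06 ± 0.08. Ccl11, the eosinophil attractant eotaxin, went the other way: its signals were 870 in DKO and 1010 in WT with DKO in Cy5, and 1008 and 1178 with DKO in Cy3. Its ratio was -0.12 ± 0.02, negative on both arrays, although the DKO signal of one array nearly equalled the WT signal of the other. Ccl24, another eotaxin, was at -0.08 ± 0.09, and its other probe was at -0.08 ± 0.03. Of the 10 measured inflammatory Ccl ligands, 6 were above 0 on both arrays (Ccl6, Ccl2, Ccl8, Ccl7, Ccl9 and Ccl1) and 4 were below 0 on both (Ccl11, Ccl24, Ccl5 and Ccl4). Ccl7 passed the filter through its DKO signal only, so its place among those above carries no weight. With median centring, Ccl7 and Ccl4 no longer kept 1 sign. Ccl4 also lost it with median pixel signals and in the software's ratios. Ccl1 lost it in the software's ratios and when loess was fitted to probes above background only. Over all measured genes, 19.2% were above 0 on both arrays and 17.9% below.

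Cxcl14 had the lowest ratio. It is a ligand made by epithelia and by brown fat, where it has been described as an attractant of macrophages. Its processed signals were 1194 in DKO and 1518 in WT with DKO in Cy5, and 1112 in DKO and 1893 in WT with DKO in Cy3. Both DKO values lay below both WT values. The log2 ratios were -0.19 and -0.51, a mean of -0.35 ± 0.22, or 1.27-fold less in DKO. In the software's ratios WT was 1.47-fold above DKO, and the deposited p-value was under 0.01 on the array with DKO in Cy3 (8.9e-05) but not on the other (0.073). The size of the difference thus rests mainly on 1 array, while its direction was the same on both.

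**Figure D2:**
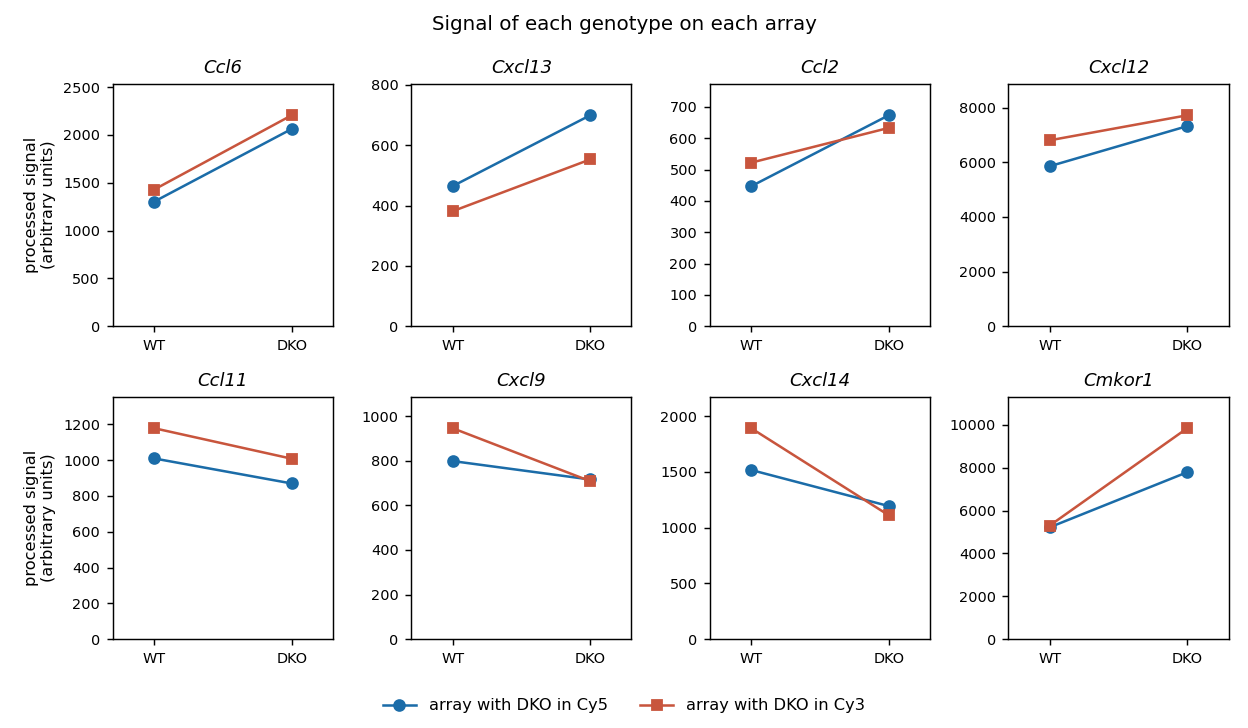
Processed signal (y axis, arbitrary units, from 0, own scale per gene) in WT and DKO (x axis), 1 line per array, for 7 chemokine genes and the scavenging receptor gene Cmkor1. Both DKO points lie above both WT points for Ccl6, Cxcl13, Ccl2, Cxcl12 and Cmkor1, and both lie below them for Ccl11, Cxcl9 and Cxcl14.

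Cxcl12, the stromal ligand of Cxcr4 that retains blood-forming and immune cells in tissue, had signals of 7321 in DKO and 5854 in WT with DKO in Cy5. On the swapped array they were 7717 and 6802. Both DKO values were above both WT values, and the ratio was 0.23 ± 0.08 (0.29 and 0.18). Cxcl13, which calls B cells into follicles through Cxcr5, had signals of 699 in DKO and 464 in WT, then 553 and 381. Its ratio was 0.22 ± 0.09, and 0.56 in the software's ratios. B cell genes did not share this: of 9 measured, 1 was above 0 on both arrays and 2 below, with a median of -0.01. Their summed normalised intensity was 1690 and 1638 in WT against 1751 and 1581 in DKO, so the 2 genotypes overlapped.

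Cxcl9, an interferon-induced attractant of T cells through Cxcr3, gave 716 in DKO and 799 in WT with DKO in Cy5, then 709 and 946. Its ratio was -0.12 ± 0.12 and came mostly from the array with DKO in Cy3, where it was -0.21 against -0.04. Cxcl10, induced by the same signal, was not measured. The 4 measured ELR-type ligands, which attract neutrophils, had a median of 0.00: Cxcl2 0.01 ± 0.24, Cxcl7 0.00 ± 0.02, Cxcl15 -0.01 ± 0.11 and Cxcl1 -0.01 ± 0.14. Each of these had opposite signs on the arrays. Cxcl7, a platelet protein, gave 3292 and 3270 in DKO and WT, then 2077 and 2078. Cxcl4, the other platelet chemokine, read 0.21 with DKO in Cy5 and -0.23 with DKO in Cy3, so its signal followed the dye and its mean of -0.01 ± 0.32 carries no direction.

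Cxcl16, which is bound by Cxcr6, was at 0.00 ± 0.07 with signals of 3061 and 2923 in DKO and WT, then 2026 and 2100. Cx3cl1, the membrane-tethered fractalkine, was at 0.01 ± 0.06. Among ligands of lymphoid and epithelial tissue, Ccl25, which brings T cells to thymus and gut, was at -0.11 ± 0.08 (-0.17 and -0.05). Its signals were 877 in DKO and 1046 in WT, then 1035 and 1136. Ccl19, a Ccr7 ligand of lymph nodes, was at -0.04 ± 0.16 with opposite signs, from signals of 4348 and 4929, then 4011 and 3763. Its other probe was at -0.03 ± 0.02. Ccl21c, the further Ccr7 ligand, was at -0.04 ± 0.05. Its probe lists RefSeq accessions of several near-identical Ccl21 genes, so it cannot be assigned to one copy. Ccl28, a mucosal ligand, was at 0.00 ± 0.07. Of these 4 measured tissue Ccl ligands, 0 were above 0 on both arrays and 2 below.

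The receptors lay closer to 0. All 10 measured receptor genes lay between -0.04 and 0.06. Of them, 9 had opposite signs on the 2 arrays, as did 18030 of all 28653 measured genes. With median centring the range was -0.01 to 0.14, and Ccr4 and Cxcr4 were above 0 on both. Cxcr4, the Cxcl12 receptor, was at 0.06 ± 0.10, Cxcr3 at 0.01 ± 0.10 and Cx3cr1, the fractalkine receptor of monocytes and macrophages, at 0.01 ± 0.05, with its other probe at 0.01 ± 0.06. Ccr4, found on Th2 and regulatory T cells, was at 0.02 ± 0.06 and Ccr8, the Ccl1 receptor, at 0.01 ± 0.16. Ccr1l1, a Ccr1-like gene, was at 0.02 ± 0.10 from signals of 4959 in DKO and 4595 in WT, then 3676 and 3865. The receptor-like Ccrl2 and the atypical receptor Ccrl1 (now Ackr4) were at -0.03 ± 0.06 and -0.01 ± 0.03.

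Ccr6, the receptor of Ccl20, marks type 17 T cells, in whose differentiation Rora takes part. Of the 10 measured receptor genes it alone had 1 sign on both arrays under this scaling. Ccrl2 was below 0 on both as well in the software's ratios and with median pixel signals. The other Ccrl2 probe read -0.08 and 0.04 in the software's ratios. The processed signals of Ccr6 were 2376 in DKO and 2491 in WT, then 2282 and 2401. Its ratio was -0.04 ± 0.03 (-0.06 and -0.02), turning to 0.05 when the arrays were only centred on their medians. A probe for Ccl20 under its other name, LARC, read -0.02 ± 0.18 with opposite signs. Of 12 type 17 genes on the array 8 were measured, with a median of 0.02 and 0 called. The defining cytokines Il17a, Il22 and Il21 were not measured, and Il17f was at 0.02 ± 0.08 and Il23r at -0.05 ± 0.04. The list also holds Rora itself.

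The 9 members that were not measured were the receptors Ccr1, Ccr2, Ccr3, Ccr7 and Cxcr6 and the ligands Ccl3, Ccl17, Ccl22 and Cxcl10. For Ccr3, the eotaxin receptor, the spot of the array with DKO in Cy5 was left out as an outlier, and the swapped array read -0.25. A further probe of Ccr3 under a clone name read 0.08 ± 0.17. The Ccr2 member probe was well above background in 1 of 4 channels. A further probe described as Ccr2, with no match in RefSeq, was well above background in 3 of 4 and read -0.03 ± 0.02. No level is claimed for the other 7.

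**Figure D3:**
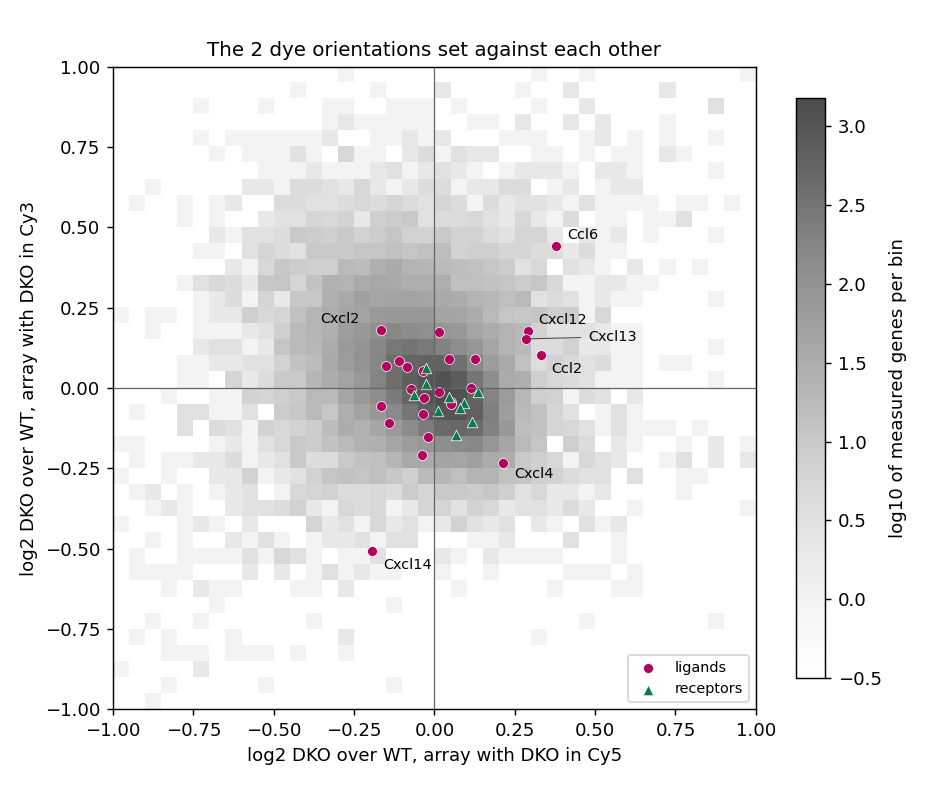
Log2 ratio of DKO over WT on the array with DKO in Cy5 (x axis) against the array with DKO in Cy3 (y axis). Grey squares count all measured genes on a log10 scale (107 lie outside the limits), circles are 25 ligands and triangles 10 receptors. Ccl6, Cxcl12, Cxcl13 and Ccl2 lie in the upper right and Cxcl14 in the lower left, whereas Cxcl4 and Cxcl2 lie where the sign followed the dye.

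Across the family, 8 genes were above 0 on both arrays (22.9%), 9 below 0 on both (25.7%) and 18 had opposite signs. The shares over all measured genes were 19.2% and 17.9%, and 18030 of 28653 had opposite signs. Of the 8 members above 0, Ccl7 was measured through its DKO signal only. Ligands made up 8 of those above and 8 of those below, and receptors 0 and 1. No test of that difference was made. Under 6 ways of scaling the arrays, 6 genes were above 0 on both arrays each time (Ccl2, Ccl6, Ccl8, Ccl9, Cxcl12 and Cxcl13). Below 0 each time were 6 others (Ccl5, Ccl11, Ccl24, Ccl25, Cxcl9 and Cxcl14). Ccl1, Ccl4, Ccl7, Ccl21c and Ccr6 lost their shared sign in at least 1 scaling. The scalings reuse the same arrays, and this count was not made over all measured genes. Nothing particular to the members is therefore read from it. A mean of at least 0.2 in either direction was reached by 5 of 35 members (14.3%) and by 5.82% of all measured genes, and all 5 were ligands (Ccl6, Cxcl14, Cxcl12, Cxcl13 and Ccl2). The SD of the mean ratio across genes was 0.125 for the members and 0.119 for all.

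Several genes of the system stand on the array under names outside the rule. Cmkor1, now called Ackr3, encodes the atypical receptor that takes up and degrades Cxcl12. It is singled out here after its values were seen. Its signals were 7793 in DKO and 5221 in WT with DKO in Cy5, and 9847 and 5301 with DKO in Cy3. Both DKO signals were far above both WT signals, and the ratio was 0.67 ± 0.19 (0.53 and 0.80), or 1.59-fold, short of the 2-fold limit. Its deposited p-values were 0.000672 and 4.3e-07. Thus Cxcl12 and its scavenger both read higher in DKO on both arrays. Cxcr4, the signalling receptor, did not keep 1 sign under this scaling, but was above 0 on both arrays with median centring. A further probe of Cxcr4 under a clone name was not measured.

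Rarres2 encodes chemerin, an adipose chemoattractant. It was at -0.26 ± 0.03, from signals of 11713 in DKO and 14281 in WT, then 12171 and 14723. Cmklr1, its receptor, was at 0.01 ± 0.01. Scye1 (now Aimp1), a cytokine cleaved from a tRNA synthetase complex, was at 0.16 ± 0.08. The atypical receptors Ackr1 and Ccbp2 (now Ackr2) were at -0.02 ± 0.02 and 0.03 ± 0.04, and Gpr2 (now Ccr10) at 0.04 ± 0.19. Ccl27 was at -0.06 ± 0.05. The neutrophil receptors Il8ra and Il8rb, now Cxcr1 and Cxcr2, and the lymphocyte ligand Xcl1 were not measured. Of 9 measured genes on the list of chemokine genes with other names, 0 were called.

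Genes around the chemokine system were also counted. Of 21 measured genes for signalling downstream of chemokine receptors 0 were called, with a median of -0.01, and the brightest were Rgs2 at 0.17 ± 0.34 and the small GTPase Rac1 at -0.43 ± 0.20. Of 22 measured genes for NF-kB and cytokine inducers of chemokines 0 were called, with a median of 0.00. Ifngr1, the interferon gamma receptor, was at -0.12 ± 0.09.

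Markers of the cells that make or follow chemokines were measured beside them. Of 15 macrophage and myeloid genes 14 were measured and 0 called, with a median of 0.02, 6 above 0 on both arrays and 2 below. Their summed normalised intensity was 4209 in WT and 4573 in DKO with DKO in Cy5, and 4078 and 4149 with DKO in Cy3. It was higher in DKO within each array, although 1 DKO value lay between the WT values. Of the 2 brightest, Lyz2, a lysozyme of myeloid cells, was at 0.20 ± 0.10, and the other had opposite signs on the arrays. Adgre1, which encodes the macrophage antigen F4/80, was at -0.03 ± 0.13. These values stand beside those of Ccl6, Ccl9, Ccl2, Ccl7 and Ccl8, which macrophages also make, and their part in those ratios was not tested.

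T cell genes (13 of 15 measured) had a median of 0.01 with Cd3e at 0.00 ± 0.05, dendritic cell genes (10 of 10) a median of 0.02, and neutrophil genes (7 of 10) of 0.00. Mast cell genes (7 of 7) were at 0.01, although Kit was at -0.40 ± 0.03, and NK cell genes (4 of 8) were at 0.00. Blood vessel endothelial genes (12 of 13), from a cell type that makes Cxcl12 and Cmkor1, had a median of -0.05, with 2 above 0 on both arrays and 4 below. Their brightest were Flt1 at 0.17 ± 0.43 and Kdr at -0.20 ± 0.02, and their summed intensities overlapped (5001 and 4793 in WT, 4655 and 5102 in DKO). Lymphatic genes (4 of 4) were at 0.03. Fibroblast and matrix genes (7 of 8), from cells that make Cxcl12 and Cxcl14, had a median of -0.14, with 2 above 0 on both arrays (Thy1 at 0.18 ± 0.14 and Pdgfra at 0.07 ± 0.05) and 3 below. The lowest was Col3a1 at -0.34 ± 0.17, and the brightest were Sparc at -0.16 ± 0.37 and Dcn at -0.03 ± 0.05. Their summed intensity was 7627 and 7208 in WT and 6694 and 6673 in DKO, lower in DKO on both arrays although the genes differed in sign. Its part in the ratios of Cxcl14 and Cxcl12 was not tested. Skin and lymph node genes (7 of 8) had a median of 0.015, and the lymph node gene Glycam1 was not measured. In all of these cell type lists 0 genes were called.

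**Figure D4:**
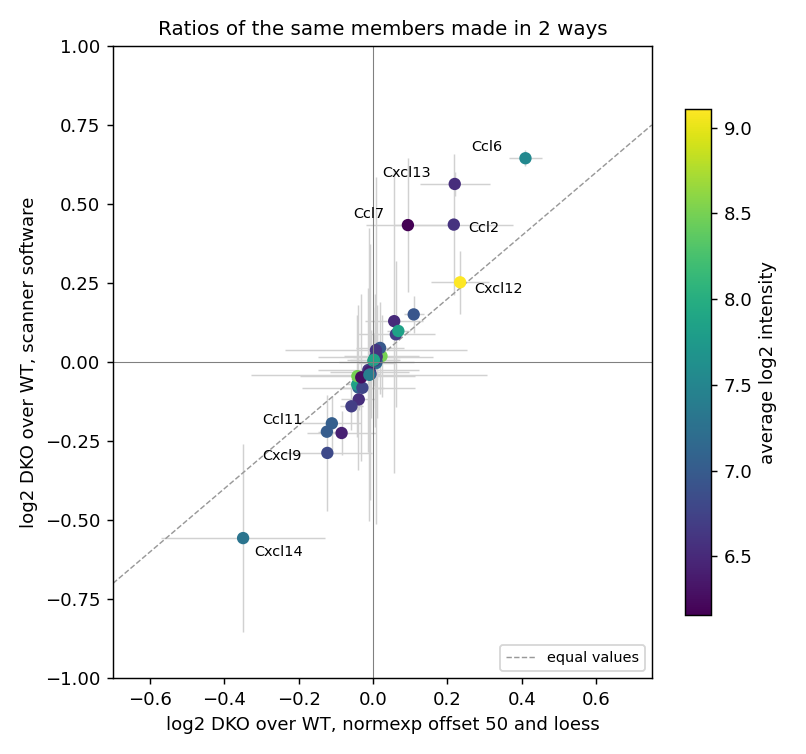
Mean log2 ratio of DKO over WT of the 35 measured genes after normexp background correction with an offset of 50 and loess (x axis) against the scanner software's ratios (y axis), with error bars of 1 SD over 2 arrays. Colour is average log2 intensity and the dashed line marks equal values. Cxcl13, Ccl2 and Ccl7 lie well above the line at low intensity, and Cxcl12 lies close to it.

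The ratios above are damped at low signal. An offset of 50 units is added to both channels before the ratio is taken, and member spots had mean signals from 56.1 to 775 units over a median local background of 57 to 72 units. In the software's ratios, which carry no such offset, Ccl6 became 0.64, Cxcl13 0.56, Ccl2 0.43, Ccl7 0.43, Cxcl9 -0.29 and Cxcl14 -0.56, while Cxcl12, at higher intensity, became 0.25. The size rule on those ratios called 0 members higher and 0 lower, and 53 (0.185%) and 28 (0.0977%) of all genes. The order of the leading genes therefore depends on the scale, but Ccl6 and Cxcl14 were at the ends of it on both.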

How the data were processed

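Brown fat RNA, taken as 1 sample per genotype, was measured on 2 two-colour Agilent arrays with exchanged dyes. Spot intensities (mean signal, median local background, processed signal), log10 ratios and their p-values were deposited as scanner output, made with Agilent Feature Extraction 7.5 per the submitters' processing notes. The deposited series value table holds these ratios on the log2 scale. They match the scanner's within 0.001 for 40962 of 41001 and 41101 of 41141 spots, with column medians of 0. The software's log2 values in the text are the deposited log10 ratios divided by log10 of 2.

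From the deposited intensities, log2 ratios were computed with limma 3.58.1 in R 4.3.3: normexp with offset 50, then loess within each array, control spots at weight 0 and outlier spots left out (171 with DKO in Cy5, 29 with DKO in Cy3), saturated spots kept. Signs were turned to DKO over WT and averaged. Well above background means the software's flag at 2.6 background SDs. Probes were named by RefSeq accession, symbol or older symbol, and the array's own name was kept for members. The genome build is not given in the files or labels, so gene order and promoters come from RefSeq alone. With 1 sample per genotype no test was made. Values on both arrays are given for the 10 measured members with the largest absolute mean, the 8 brightest, Ccr6 and Ccl20; every other measured member but 1 is named with its mean, and of each list the called genes or the 2 brightest are candidates for naming. Cmkor1 and the other chemokine genes under older names, Rora, Ucp1, Kit, Col3a1, Thy1, Pdgfra, Adgre1 and the type 17 genes were named outside this rule, after their values were seen. The members, the 16 gene lists and these rules were chosen with earlier results of these data known. The call rule was run on simulated data first. Python 3.11.15, pandas 2.3.3, numpy 2.4.6 and matplotlib 3.10.9 were used. The alternatives were other offsets, signals, normalisations, filters, probe rules, fold limits and each array alone. A few genes are not reported here.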

Additional observations from a re-analysis of the deposited data

How the results depend on the processing

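The number of arrays and the low signal of most members limit precision. Of the measured members, 0 were called in either direction under every setting run, except that 1 (Ccl6) passed the software p-value rule. The measured members numbered 35 in the main setting and from 34 to 43 across settings. Among all genes, the counts higher and lower were 102 and 79 at 1.5-fold, 7 and 0 at 3-fold, 142 and 121 by software p-value, and 53 and 28 with the software's ratios or the series value table, and 13 were lower with an offset of 16 (main values 29 and 7). Leaving out 1 array gave 32 to 55 higher (55 using only DKO in Cy3) and 9 to 38 lower (38 using only DKO in Cy5). The members' median moved to 0.0291 with median centring, beside 0.0448 for all genes, and lay between -0.0219 and 0.0142 on single arrays. Of 16 members with values on both arrays, 11 kept 1 sign over the settings. Most of the 16 were chosen for the size of their ratio, and these 11 had the largest absolute means among them. Since size favours a steady sign, this count is no separate support. Ccl7, 1 of the 11, passed the filter through its DKO signal only. The sign turned for Ccl19 (median centring, DKO in Cy3 only), Ccr1l1 (DKO in Cy3 only), Ccr6 (median centring, 0.05), and Cxcl16 and Cxcl7 (loess on detected probes, DKO in Cy3 only). Ccl6 ranged from 0.38 to 0.64, Cxcl14 from -0.56 to -0.19, Cxcl12 from 0.18 to 0.36, Cxcl13 from 0.15 to 0.56 and Ccl2 from 0.10 to 0.43. With the same settings, added after its value was seen, Cmkor1 ranged from 0.53 to 0.80 and Rarres2 from -0.28 to -0.12. No paired analysis was possible because each array already holds both genotypes, and the 2 arrays were taken as 1 sample of each, the labels not saying whether their extracts differed. The causes of these shifts were not tested.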
